A study of Saccharomyces cerevisiae with 95 samples.

Results

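Sites inside coding genes were binding sites of 5 general transcription factors that lay within the body of a protein-coding gene of budding yeast and away from any gene start. A site was taken when it was off the mitochondrial genome, did not overlap a tRNA or rRNA gene, had its whole interval inside one protein-coding gene of the R64 reference (sacCer3), and had its midpoint over 300 bp from the annotated start of any gene. The rule used position alone and no measured level. It gave 1127 of 20232 sites, namely 409 of the 4385 TBP sites, 231 of 3685 TFIIA sites, 189 of 4033 TFIIB sites, 174 of 3656 TFIIF sites and 124 of 4473 TFIIE sites. They were set against 13454 promoter sites, whose midpoint lay from 250 bp upstream to 100 bp downstream of the start of a protein-coding gene.

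Competition ChIP-seq measures, at one site, how much of an induced copy of a factor and how much of a copy already present is crosslinked to DNA. The cells were diploid W303 yeast in which one allele of the factor carried an N-terminal HA tag under the galactose-inducible GAL1 promoter, and the other an N-terminal Myc tag under its own promoter. Tagged proteins were TBP, the Toa1 subunit of TFIIA, TFIIB, the Tfa1 subunit of TFIIE and the Tfg2 subunit of TFIIF, and in the TFIIA, TFIIE and TFIIF strains a copy of each subunit was under GAL1 control. Cells grown in raffinose received galactose at 0 min, and chromatin was precipitated against each tag at 10, 20 and 25 min, then at 30 and 40 min, and last at 60, 90 and 120 min. Each factor, tag and time had 1 library, so every p-value measures the scatter of the time points about a fitted line and not the spread between cultures. All libraries compared came from cells that carried both tagged alleles and were in galactose, and the TFIIB Myc library at 0 min, before galactose, is described apart. The HA libraries carried the induced copy and the Myc libraries the copy already present. Inputs were not analysed here, nor were the Myc libraries at 0 min of TBP, TFIIA, TFIIE and TFIIF.

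TBP is the subunit that recognises the TATA element and bends promoter DNA, TFIIA and TFIIB hold it there, TFIIF arrives with RNA polymerase II, and TFIIE joins late and brings in the factor that opens the DNA. These proteins assemble mainly in the nucleosome-depleted DNA just upstream of genes. Coding sequence is covered by nucleosomes that elongating polymerase takes down and puts back, and in mutants of the chromatin factors that restore them, transcription can start within genes. Part of the coding sequence of yeast is present in many near-identical copies, above all the gag and pol genes of the Ty retrotransposons and the helicase genes of the subtelomeric Y' elements.

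Sequence shared by sites of all 5 factors was printed for the 3 places with the highest mean Myc level, since they show where inside a gene the whole set of factors was found. The stretch in UBR2, which encodes a ubiquitin ligase, was chrXII:187947-188218 on the minus strand. That in EPL1, a subunit of the NuA4 histone acetyltransferase, was chrVI:89495-89710 on the minus strand. That in MNN4, a regulator of mannan phosphorylation in the cell wall, was chrXI:66301-66501 on the minus strand and is the middle of the shared part. Every sequence is given 5′ to 3′ on the coding strand of its gene from R64. Capitals would mark TATAAA on either strand, and these 3 stretches had none.
UBR2, 5 factors: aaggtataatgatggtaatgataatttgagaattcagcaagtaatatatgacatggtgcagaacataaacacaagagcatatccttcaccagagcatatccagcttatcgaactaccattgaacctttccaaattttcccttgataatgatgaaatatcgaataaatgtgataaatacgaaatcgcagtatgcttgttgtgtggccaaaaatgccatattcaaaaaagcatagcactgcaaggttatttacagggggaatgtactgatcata
EPL1, 5 factors: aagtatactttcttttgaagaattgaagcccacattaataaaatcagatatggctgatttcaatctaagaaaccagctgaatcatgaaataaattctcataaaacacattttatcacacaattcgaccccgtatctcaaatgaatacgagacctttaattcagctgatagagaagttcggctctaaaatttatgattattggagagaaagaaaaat
MNN4, 5 factors: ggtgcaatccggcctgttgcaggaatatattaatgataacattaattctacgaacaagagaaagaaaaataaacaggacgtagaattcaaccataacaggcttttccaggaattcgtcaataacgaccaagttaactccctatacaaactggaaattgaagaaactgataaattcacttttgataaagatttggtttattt

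The next sequences belong to the 2 single-copy TBP sites with the highest Myc level, in MNN1 at chrV:154132-154278 on the plus strand and in CIN8 at chrV:37281-37484 on the minus strand, and to a TFIIA site of PMA1 at chrVII:481468-481617 on the minus strand, where the HA copy stood far above the Myc copy. MNN1 encodes a mannosyltransferase of the Golgi, CIN8 a mitotic kinesin and PMA1 the proton pump of the plasma membrane. Capitals mark TATAAA on either strand, and in MNN1 and CIN8 the matches on both strands overlapped.
MNN1, TBP: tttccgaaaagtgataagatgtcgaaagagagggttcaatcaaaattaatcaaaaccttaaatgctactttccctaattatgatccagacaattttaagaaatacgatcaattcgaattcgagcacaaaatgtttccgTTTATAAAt
CIN8, TBP: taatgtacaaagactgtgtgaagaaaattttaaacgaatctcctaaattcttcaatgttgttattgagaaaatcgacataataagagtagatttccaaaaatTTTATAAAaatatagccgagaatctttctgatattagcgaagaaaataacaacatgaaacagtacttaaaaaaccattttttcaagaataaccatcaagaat
PMA1, TFIIA: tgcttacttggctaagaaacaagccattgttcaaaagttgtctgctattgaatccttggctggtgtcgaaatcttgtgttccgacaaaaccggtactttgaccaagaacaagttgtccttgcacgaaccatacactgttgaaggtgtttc

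The last pair shows TBP sites that ran across the end of an intron, with the intron in capitals and the exon in lower case. RPL20B encodes a protein of the large ribosomal subunit, and its site was at chrXV:900756-900937 on the minus strand. GLC7 encodes the catalytic subunit of protein phosphatase 1, and its site was at chrV:433138-433295 on the plus strand.
RPL20B, TBP: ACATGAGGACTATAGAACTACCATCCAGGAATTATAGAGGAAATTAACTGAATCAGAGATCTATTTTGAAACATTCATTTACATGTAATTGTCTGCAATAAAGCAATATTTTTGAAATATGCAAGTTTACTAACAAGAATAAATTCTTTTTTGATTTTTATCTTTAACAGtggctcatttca
GLC7, TBP: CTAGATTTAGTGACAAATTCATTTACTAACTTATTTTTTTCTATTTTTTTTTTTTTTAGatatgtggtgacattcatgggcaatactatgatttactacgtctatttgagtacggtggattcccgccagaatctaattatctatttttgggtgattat

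Total counts over the sites of a library ran from 2740185 to 19483568, and the lowest count at any site inside a gene in any library was 19. The mitochondrial share of these counts was 0 to 61.85%, highest in the TFIIF HA library at 10 min, and mitochondrial sites are not among those described. Sites inside genes held 0.900% to 5.53% of the nuclear counts in their library, and promoter sites held 20.6% to 63.9%.

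Most sites inside genes lay in repeated DNA. The Ty genes held 179 of the TBP sites, 121 of TFIIA, 91 of TFIIB, 53 of TFIIF and 30 of TFIIE, and the subtelomeric helicase genes 47, 55, 28, 22 and 16, in the same order of factors. The median Ty site had 0% of its 50-base windows in single copy in R64, so its reads could have come from any copy and its count cannot be tied to one. Another 16, 12, 5, 13 and 5 sites lay in other sequence of which under 50% of the windows were single-copy. That left 434 single-copy sites, 167 of TBP, 43 of TFIIA, 65 of TFIIB, 86 of TFIIF and 73 of TFIIE, and these are the ones for which a place in the genome can be read. The cut of 50% was chosen after the data had been seen.

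**Figure D1:**
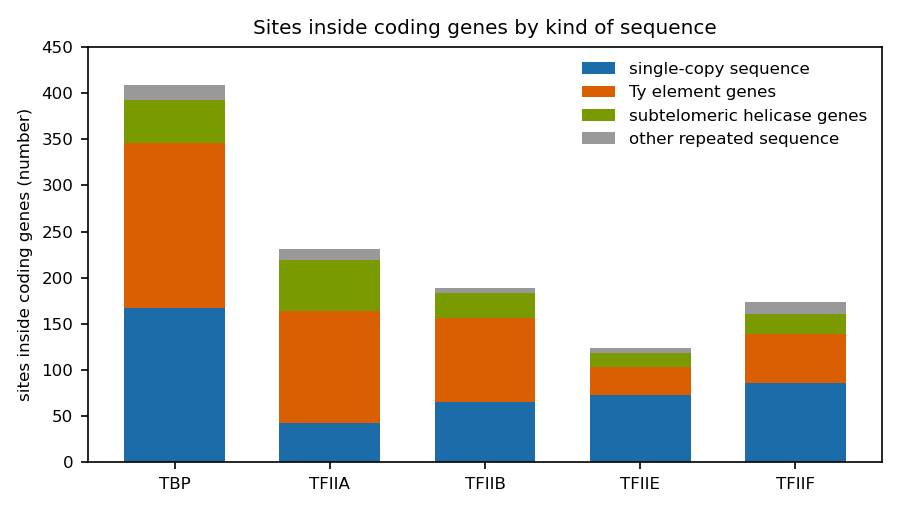
Number of sites inside coding genes (vertical axis) for each factor, stacked by kind of sequence. TBP had 409 such sites and TFIIE 124, and single-copy sequence held 167 and 73 of them.

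The single-copy sites merged into 306 loci in 255 genes. Of these loci, 231 held a site of 1 factor, 47 of 2, 14 of 3, 8 of 4 and 6 of all 5. The 6 were in UBR2, EPL1, MNN4, DNL4 (DNA ligase IV), PTK1 (a protein kinase) and UGA1 (GABA transaminase). Counting sites of any class, 172 of the 409 TBP sites inside genes overlapped no site of another factor, against 26 of 2428 TBP promoter sites. The same count was 14 of 231 against 22 of 2277 for TFIIA, 22 of 189 against 10 of 2920 for TFIIB, 23 of 174 against 6 of 2670 for TFIIF, and 20 of 124 against 264 of 3159 for TFIIE. Over all nuclear sites off tRNA and rRNA genes, this share was 14.4% for TBP, 2.11% for TFIIA and 0.959% for TFIIB. It was 1.09% for TFIIF and 7.56% for TFIIE. Sites of all 4 other factors were met at 66 of 409 TBP sites inside genes and at 1874 of 2428 promoter sites. Among all such nuclear TBP sites the share was 62.0%.

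Single-copy sites inside genes were narrower than promoter sites in median for each factor. Over all sites inside genes the medians were closer for every factor but TFIIB. The rule itself bounds width, since a site had to fit inside a gene. Median widths inside genes and at promoters were 252 and 261 bp for TBP, 319 and 364 bp for TFIIA, 405 and 345 bp for TFIIB, 270.5 and 288 bp for TFIIF, and 396.5 and 416 bp for TFIIE. TFIIB was the factor whose sites inside genes were the wider class. Single-copy sites had medians of 205 bp (TBP), 268 bp (TFIIA), 299 bp (TFIIB), 244.5 bp (TFIIF) and 298 bp (TFIIE). Among TFIIB sites those in Ty genes had 473 bp and those in helicase genes 798 bp, and TFIIE sites in Ty genes had 710.5 bp.

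Sites inside genes were richer in G and C than promoter sites. Median GC was 35.9% against 34.5% for TBP, 41.2% against 36.8% for TFIIA, 39.8% against 36.6% for TFIIB, 39.8% against 36.2% for TFIIF and 39.5% against 36.6% for TFIIE. TBP was the factor with the lowest GC in its sites inside genes. These medians include repeated sequence. Windows of coding genes other than Ty genes, over 300 bp from any start, had a median GC of 39.3% (quartiles 36.3% and 42.3%). TFIIB, TFIIF and TFIIE sites inside genes were thus close to coding DNA, and TBP sites lay below it.

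The motif TATAAA, searched on both strands within 100 bp to either side of the midpoint, was found in 14.4% of the 167 single-copy TBP sites inside genes and in 38.6% of TBP promoter sites. The other factors had it in 11.6% to 14.0% of single-copy sites inside genes and in 33.2% to 34.6% of promoter sites, so each share inside genes was under the promoter share. Of 33710 windows of the same length in coding genes over 300 bp from any start, 14.4% held TATAAA. The core bound by Reb1, CGGGTAA, was found in 0 to 2 single-copy sites inside genes per factor, in 6.44% to 8.21% of promoter sites, and in 0.448% of the windows.

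Within their genes, single-copy sites lay toward the middle and the end. The median midpoint was at 0.52 of the gene length from the start for TBP, 0.58 for TFIIA, 0.67 for TFIIB, 0.60 for TFIIF and 0.66 for TFIIE. The rule leaves out the DNA next to starts, so few sites could fall early in a gene. No site lay within 500 bp of a centromere, and 4 single-copy sites lay within 500 bp of a tRNA gene. Just outside the distance limit, from 200 to 300 bp from a start, 5 TBP sites had a median Myc level of -0.21 relative to promoter sites (-0.40 to 0.14), and just inside it, from 300 to 400 bp, 24 had 0.13 (-0.81 to 0.60).

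Level was read within each library, as the median log2 counts per bp of sites inside genes minus that of promoter sites, with 0.5 added to each count. No scaling between libraries enters this value. For TBP the median over the 8 times was -0.97 in HA (-1.23 to -0.11) and -0.56 in Myc (-0.89 to -0.38). The single-copy TBP sites stood at -0.32 in HA and -0.07 in Myc, and Ty sites at -1.17 and -0.72. TBP Myc at single-copy sites inside genes was thus close to the level of a median promoter site.

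For TFIIA the HA copy lay above promoter sites at all 8 times and the Myc copy below them at all 8. The medians were 0.41 in HA (0.07 to 0.67) and -0.43 in Myc (-0.87 to -0.23), and for single-copy sites 0.10 and -0.14. TFIIB stood lowest, at -1.46 in HA (-1.65 to -0.28) and -2.53 in Myc (-2.85 to -2.34). Its single-copy sites were at -0.58 and -0.95, and its Ty sites at -1.61 and -2.96. At 120 min 65.1% of TFIIB sites inside genes lay in the Myc library at or below the 5th percentile of counts per bp over nuclear sites, against 1.16% of promoter sites. Repeated sequence made up much of this, since 24.6% of single-copy TFIIB sites lay there at 120 min and 3.08% at 10 min.

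TFIIE sites inside genes were at -0.20 in HA (-0.44 to 0.00) and -0.26 in Myc (-0.48 to -0.02), and single-copy sites at -0.28 in each. TFIIF sites were at -0.07 in HA (-0.43 to 0.40) and -0.36 in Myc (-1.05 to -0.12). The TFIIF HA value was above promoter sites at the 4 early times, with 0.40 at 10 min, 0.21 at 20 min, 0.15 at 25 min and 0.12 at 30 min. It was below them at the 4 late times, with -0.26 at 40 min, -0.43 at 60 min, -0.37 at 90 min and -0.38 at 120 min. The sign of the TFIIF HA difference thus went with the time, and its median over times lies between the early and late values.

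**Figure D2:**
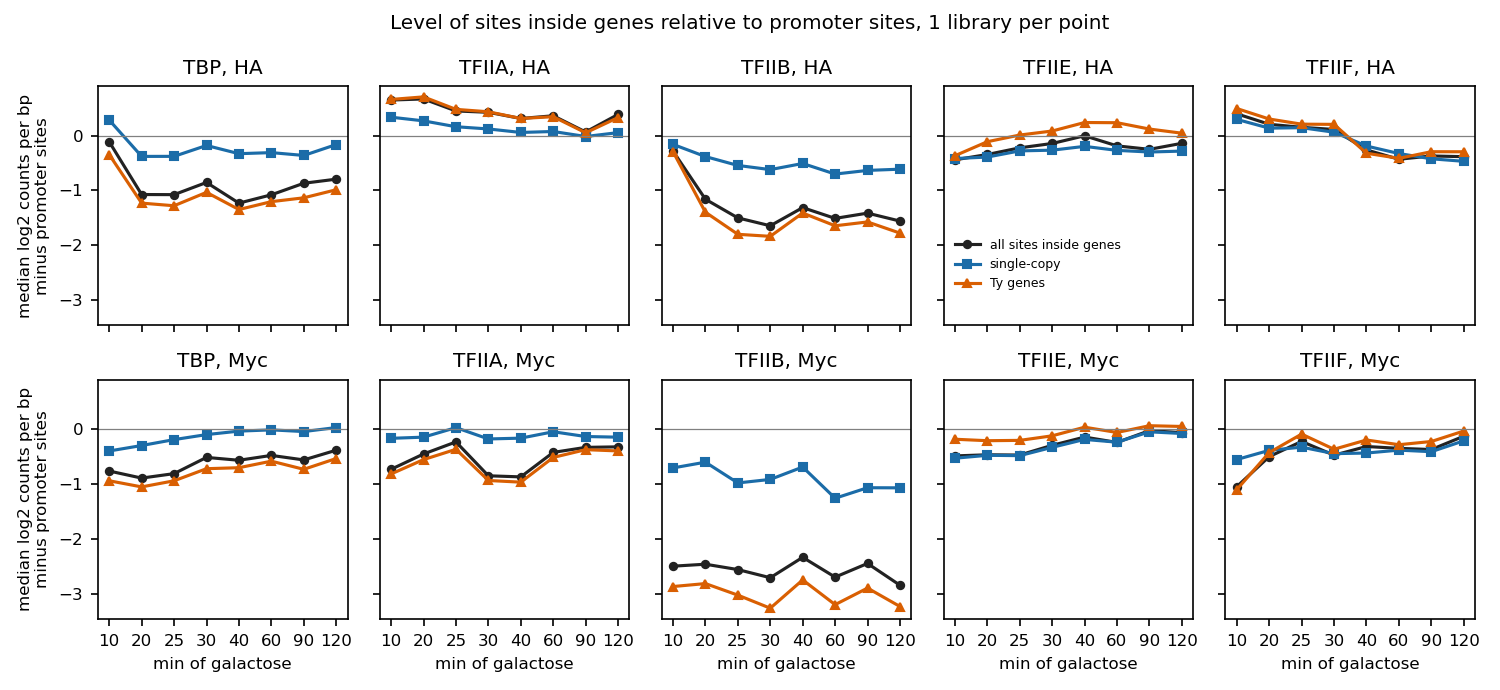
Median log2 counts per bp of sites inside genes minus the median of promoter sites in the same library (vertical axis) against min of galactose (evenly spaced), for HA (top) and Myc (bottom) of each factor, with 1 library per point. Black circles are all sites inside genes, blue squares single-copy sites and orange triangles sites in Ty genes. TFIIB Myc lies lowest, between -2.85 and -2.34 for all sites, and TFIIA HA lies above 0 at every time.

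TBP sites inside genes had one feature that the rule did not use. Of the 167 single-copy TBP sites, 29 touched an intron, 10 wholly within it and 19 across a splice site, in 28 genes. The other factors had 2 of 43 (TFIIA), 2 of 65 (TFIIB), 4 of 86 (TFIIF) and 0 of 73 (TFIIE). Introns make up 0.313% of the coding-gene bases over 300 bp from any start, repeated genes included. This is a share of single bases. A site was counted when any of its bases lay in an intron, also where the intron was within 300 bp of a start. The shares are thus unlike measures, and no fold excess can be read from them. Yeast introns are few and lie mostly near the 5′ end of genes for ribosomal proteins, the proteins of the translation machinery, and 88 of 132 such genes had one.

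Ribosomal protein genes held 22 of the 29 sites, each in a gene of its own. Their mean Myc level was 0.15 above the promoter median at the median site (-0.04 to 0.60), and 19 of the 22 were above it. All 29 intron sites had a median of 0.15, against -0.22 for the 138 single-copy TBP sites that touched no intron. The site of RPL20B had a Myc level of 0.60 ± 0.31 (SD over 8 times) and an HA level of 0.43 ± 0.13. That of RPL35A had 0.43 ± 0.32 in Myc, that of RPS23B 0.41 ± 0.28 and that of RPL33A 0.36 ± 0.25. Outside the ribosomal protein genes, GLC7 had 0.65 ± 0.16 in Myc and 0.34 ± 0.30 in HA. PCH2, a meiotic checkpoint gene, had 0.04 ± 0.21 in Myc, and the DBP2 intron, in an RNA helicase gene, had a pair of sites at -0.22 ± 0.33 and -0.24 ± 0.32.

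Several properties went along with the introns. Sites on ribosomal protein introns had a median GC of 31.7% and a median width of 192.5 bp, and introns as a whole had a GC of 33.8%. They lay near starts, and 20 of the 22 had a TBP promoter site within 250 bp of the start of the same gene, separated by 14 to 274 bp with a median gap of 157 bp. From 400 to 600 bp from a start, 12 intron sites had a median Myc level of 0.14 and 24 other sites -0.31. From 300 to 400 bp the values were 0.19 for 14 intron sites and 0.02 for 4 others. Of the 22, 9 overlapped no site of another factor. None of the 29 passed the test of the HA/Myc ratio described next. The part of base composition and of the neighbouring promoter site in this level was not tested.

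**Figure D3:**
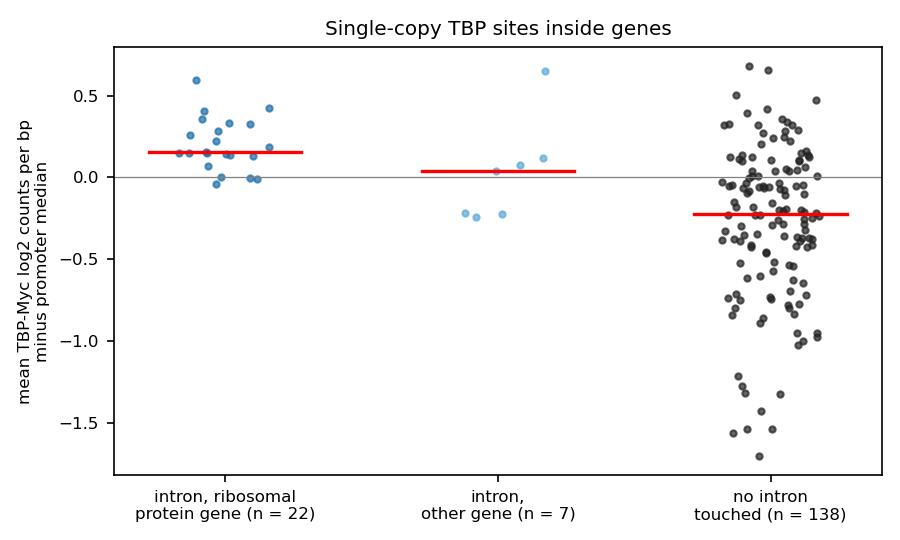
Mean TBP Myc level of each single-copy TBP site inside a gene (vertical axis, log2 counts per bp minus the promoter median, mean of 8 libraries) for sites touching an intron of a ribosomal protein gene (22), an intron of another gene (7) and no intron (138). Each point is a site, the red line is the median of the class, and points are spread sideways only to be visible. The first class has its median at 0.15 and the last at -0.22.

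The HA/Myc ratio at a site, relative to promoter sites, compares the induced copy with the copy already present. The induced protein builds up over the course, so HA counts at 10 min hold the least of it. In the HA libraries at 10 min the median promoter site stood 0.36 to 0.96 on the log2 scale above the 5th percentile of counts per bp, and in the Myc libraries 0.68 to 1.55. A background shared by all sites raises HA/Myc where Myc is low, and at 10 min it cannot be told apart from early binding of the induced copy. In the TFIIA HA libraries from 20 to 120 min the median promoter site stood 0.31 to 0.44 above that percentile. The same limit therefore holds for TFIIA at its later times. In TFIIF HA the median promoter site stood 0.27 above it at 20 min and 0.33 at 30 min. In TFIIE Myc it stood 0.34 to 0.43 above it from 40 to 120 min. The limit holds for these TFIIF and TFIIE libraries too. At 10 min the median log2 HA/Myc of sites inside genes stood above that of promoter sites by 0.68 for TBP, 1.59 for TFIIA, 2.32 for TFIIB and 1.63 for TFIIF, and stood at -0.16 for TFIIE. At 120 min the differences were -0.39 for TBP, 0.80 for TFIIA, 1.21 for TFIIB, -0.20 for TFIIF and -0.08 for TFIIE. TBP lay above promoter sites at 10 min alone, and TFIIF up to 30 min and again at 90 min. TFIIA and TFIIB lay above them at all 8 times.

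Single-copy sites had the same sign at 10 min for those 4 factors and smaller values for 3 of them. Their differences at 10 min were 0.69 for TBP, 0.54 for TFIIA, 0.57 for TFIIB and 0.84 for TFIIF, and at 120 min -0.17, 0.27, 0.57 and -0.13. The TFIIE difference was 0.05 at 10 min and -0.25 at 120 min. Of the 167 single-copy TBP sites, 94.6% lay above the promoter median at 10 min and 24.0% at 120 min. For TFIIB 90.8% of 65 were above it at 10 min and 70.8% at 120 min.

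Sites inside genes had lower Myc levels than promoter sites, so the ratio was also compared within each of 4 groups of sites of like Myc level. For TBP at 10 min the difference was 0.73, 0.59, 0.59 and 0.83 from the lowest to the highest group, with 288, 52, 45 and 24 sites inside genes. At 120 min it was -0.20, -0.12, -0.14 and -0.23. The TBP difference thus kept its sign in each group at both times. For TFIIA at 10 min it was 1.38, 0.49, 0.80 and 0.99, with 189, 24, 9 and 9 sites inside genes. For TFIIF it was 1.38, 0.65, 0.64 and 2.94, with 134, 25, 9 and 6. Single-copy TFIIF sites had 0.79, 0.48, -0.13 and 1.89, so their sign was not kept in every group. TFIIB differed here, with 2.04 in the lowest group of 171 sites inside genes and 0.06, -0.05 and -0.24 in the others, which held 11, 4 and 3. The TFIIB excess at 10 min was thus met in the lowest group and not in the 3 above it. TFIIE lay below promoter sites in each group at 10 min, at -0.34, -0.12, -0.17 and -0.40. These groups held 74, 27, 17 and 6 TFIIE sites inside genes. Single-copy TFIIE sites had -0.13, 0.11, -0.55 and 0.04, so their sign was mixed.

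**Figure D4:**
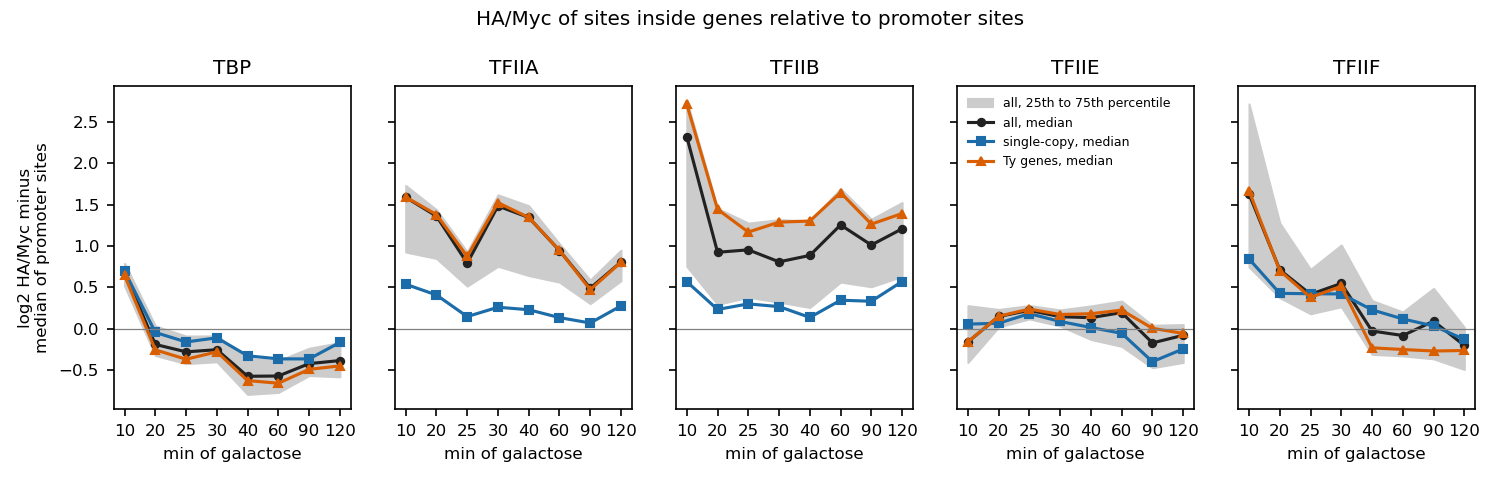
Log2 HA/Myc of sites inside genes minus the median of promoter sites at the same time (vertical axis) against min of galactose (evenly spaced), by factor, with 1 HA and 1 Myc library per point. The grey band runs from the 25th to the 75th percentile of all sites inside genes, black circles are their median, blue squares the single-copy median and orange triangles the Ty median. TBP lies at 0.68 at 10 min and at or below -0.19 from 20 min on.

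The ratio slope put this into one number per site. It is the change in log2 HA/Myc for each doubling of time, relative to the typical site of the factor, from edgeR's quasi-likelihood test on 16 libraries with the time as a block, with Benjamini-Hochberg adjustment over all sites of the factor. From 10 to 120 min there are 3.585 doublings. The median slope of sites inside genes was -0.22 for TBP, -0.22 for TFIIA, -0.16 for TFIIB, -0.42 for TFIIF and -0.05 for TFIIE, and that of promoter sites was 0.03, 0.01, 0.02, 0.00 and -0.01 in this order. Single-copy sites had -0.17, -0.07, 0.02, -0.28 and -0.13, so the TFIIB sign rested on repeated sequence.

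For TBP 39 of 409 sites inside genes fell and 0 rose, against 1.25% falling and 6.64% rising over all 4385 TBP sites. Among promoter sites 4 fell and 26 rose. Of the single-copy sites 23 of 167 fell. At an unadjusted p under 0.05 the counts inside genes were 259 falling and 1 rising, and DESeq2 gave 165 and 0. The count of falls depended on single times, at 0 without 10 min, 22 without 60 min, 108 without 90 min and 184 without 120 min, and it was 9 with a correction for level and 0 after background subtraction. The count of rises was 0 in each of these settings.

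For TFIIA 91 of 231 sites inside genes fell and 0 rose, against 9.44% falling and 7.6% rising over all TFIIA sites. Sites in Ty genes gave 75 of the 91 and single-copy sites 10 of 43, so the share among single-copy sites was 23.3%. The count at an unadjusted p under 0.05 was 175 falling and 2 rising, and DESeq2 gave 134 and 0. Falls numbered 8 without 10 min, 28 without 20 min, 176 without 25 min, 41 without 60 min, 14 without 90 min and 0 after background subtraction.

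TFIIF had the most falls. There 133 of 174 sites inside genes fell and 0 rose, against 17.1% falling and 19.4% rising over all TFIIF sites, and 51 of 86 single-copy sites fell. DESeq2 gave 135 falling and 0 rising, and 1 site rose at an unadjusted p under 0.05. Without the library pair of 10 min 86 fell. In that pair the mitochondrial share of counts was at its highest in HA, and its part in the count was not tested.

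For TFIIE 17 sites inside genes rose and 44 fell of 124, against 29.4% rising and 30.9% falling over all TFIIE sites. The shares over all 124 were therefore below and close to those of all sites. Among single-copy sites 9 rose and 36 fell of 73, and of the 20 that overlapped no site of another factor 17 fell and 1 rose. Rises numbered 8 without 10 min, and falls 21 with a correction for level. TFIIB had 1 rise and 0 falls of 189 in edgeR, against 0.669% rising and 0.545% falling over all TFIIB sites, so few sites of any kind passed the test for this factor. At an unadjusted p under 0.05 there were 4 rises and 29 falls, and DESeq2 gave 1 and 3.

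The copies taken apart showed which library moved. Counts were scaled within each tag, so these slopes are relative to the typical site and not absolute. In Myc alone, 78 TFIIE sites inside genes rose and 8 fell, against 30.9% and 29.4% of all TFIIE sites. In TFIIE Myc the median promoter site stood 0.73 above the 5th percentile of counts per bp at 10 min and 0.35 at 120 min. Promoter sites held 58.9% of nuclear TFIIE Myc counts at 10 min and 45.2% at 120 min. The part of this change in the TFIIE Myc rises was not tested. TFIIB Myc fell at 22 and rose at 1, against 9.37% falling and 10.8% rising, and 18 of the 22 were single-copy sites. Without 20 min 13 of these falls were called, and without 120 min 9. TBP Myc rose at 4 and fell at 4 (0.502% and 1.76% of all sites), and DESeq2 called 40 rises. TFIIF Myc rose at 11 and fell at 0 (0.711% and 0.0547%), with 66 rises and 1 fall in DESeq2, 1 fall at an unadjusted p under 0.05, and 0 rises without 10 min and 46 without 25 min. TFIIA Myc moved at 0 sites in edgeR (0.217% rising and 0.19% falling over all sites), with 6 rises and 3 falls at an unadjusted p under 0.05 and 1 rise in DESeq2.

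In HA alone, falls outnumbered rises at sites inside genes for all 5 factors, in TFIIE by 4 to 2. HA fell at 39 TBP sites and rose at 2 (7.27% and 8.87% of all sites), fell at 90 TFIIA sites and rose at 1 (10.2% and 11.5%), fell at 49 TFIIB sites and rose at 1 (3.05% and 5.65%), and fell at 105 TFIIF sites and rose at 3 (21.1% and 22.2%). The TFIIE shares over all sites were 3.78% falling and 3.04% rising. Without 10 min the falls were 12 for TBP, 4 for TFIIA and 5 for TFIIB.

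UBR2 held the strongest of the places shared by all 5 factors, 5146 bp from its start in a gene of 5619 bp. Its TFIIB site had 980 to 5857 HA counts (median 4382) and 5196 to 6378 Myc counts (median 5682) over the 8 times. The TFIIB Myc level was 0.96 ± 0.12 above the promoter median (SD over 8 times), and TFIIE Myc was 0.91 ± 0.42. TBP, TFIIA and TFIIF Myc stood at 0.39 ± 0.19, 0.12 ± 0.14 and 0.33 ± 0.17. TFIIA was thus within its spread of a median promoter site there, and the other 4 factors were above one by more than their SD. The ratio slope passed the test in TFIIE alone, at 0.16 ± 0.05 (SE, adjusted p = 0.00907 in edgeR), and the adjusted p of the other 4 ran from 0.121 to 0.675. After background subtraction the TFIIE call was lost (adjusted p = 0.709), and with a correction for level the slope turned to -0.10 (adjusted p = 0.018), so its direction depended on the processing.

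EPL1 had its shared site at 0.32 of the gene length. TFIIB Myc was at 0.62 ± 0.30 and TBP Myc at 0.32 ± 0.30, while the HA level was -0.29 ± 0.55 for TFIIB and 0.06 ± 0.53 for TBP. Both copies fell there relative to the typical site in TBP, TFIIB and TFIIE. The Myc slope was -0.26 for TBP (edgeR adjusted p = 0.022), -0.19 for TFIIB (0.0406) and -0.22 for TFIIE (0.000513). The HA slope was -0.42 for TBP (0.000177), -0.40 for TFIIB (0.015), -0.28 for TFIIE (0.00678) and -0.40 for TFIIF (0.0002). The ratio slope passed in TFIIF alone, at -0.23 ± 0.07 (adjusted p = 0.0218), and was lost without 60, 90 or 120 min (highest adjusted p 0.0821) and after background subtraction (0.441). At MNN4 the Myc level lay within 0.12 of a median promoter site for 4 factors and lower for TFIIB. It was -0.08 ± 0.17 for TBP, -0.06 ± 0.07 for TFIIA, -0.33 ± 0.25 for TFIIB, -0.06 ± 0.14 for TFIIF and -0.11 ± 0.07 for TFIIE. The TFIIB HA level there was -0.55 ± 0.41. The ratio slope at MNN4 passed in TFIIE alone, at -0.12 ± 0.04 (edgeR adjusted p = 0.0245), and was lost without 25, 90 or 120 min, with a correction for level (0.13), in DESeq2 (0.0514) and after background subtraction (0.0687).

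The MNN1 TBP site had 701 to 948 HA counts (median 757.5) and 440 to 960 Myc counts (median 738.5). Its Myc level was 0.68 ± 0.16, and its HA level 0.48 ± 0.29. The CIN8 TBP site had 868 to 1379 HA counts (median 1036) and 429 to 1306 Myc counts (median 1128), with a Myc level of 0.66 ± 0.29. Neither overlapped a site of another factor, and the ratio slopes, -0.23 ± 0.08 and -0.11 ± 0.11, had edgeR adjusted p of 0.105 and 0.573.

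TBP falls with the largest slope were in ACS1, an acetyl-CoA synthetase, and PDR12, a plasma membrane transporter that exports weak acids. The ACS1 site (chrI:43664-43889) had log2 HA/Myc relative to promoter sites of 1.07 at 10 min, 0.44 at 20 min, -0.03 at 25 min, -0.30 at 30 min, -1.22 at 40 min, -1.02 at 60 min, -0.73 at 90 min and -0.86 at 120 min. Its slope was -0.53 ± 0.13 (edgeR adjusted p = 0.0132), and it was not called without 10 min (adjusted p = 0.459). The TBP site of PDR12 (chrXVI:448072-448268) had 1.26 at 10 min, 0.02 at 30 min and -0.69 at 120 min, with a slope of -0.52 ± 0.09 (adjusted p = 0.00099) that was likewise lost without 10 min (0.0573). At both, the early times were high and the late times low, without overlap between 10 to 25 min and 40 to 120 min. Both calls were lost after background subtraction, with adjusted p of 0.346 and 0.0939.

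Long single-copy genes carried runs of TBP sites. FAS1, the beta subunit of fatty acid synthase, had 7 TBP and 3 TFIIF sites, and FKS1, a glucan synthase of the cell wall, had 6 and 3. RPM2, a subunit of mitochondrial RNase P, had 5 sites and RNR1, the large subunit of ribonucleotide reductase, had 4, all of TBP. These genes were chosen after their values had been seen, as those with the most sites. In FAS1 the TBP ratio slope fell at 5 of 7 sites, from -0.33 to -0.42, and the pair nearest to the start had -0.11 and -0.27 and did not pass. The 3 TFIIF sites of FAS1 fell, with slopes from -0.81 to -1.00. In RNR1 the sites at 0.52 and 0.78 of the gene length fell, with -0.33 and -0.37, and those at 0.15 and 0.30 did not pass, with -0.12 and -0.25. Over all sites of the factor 1.25% fell for TBP and 17.1% for TFIIF, and over all sites inside genes 9.54% and 76.4%. Every TBP fall inside a gene, these included, was lost without 10 min and after background subtraction. Whether the slope went with the place in the gene was not tested.

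TFIIA falls with the largest slope were a pair of sites in PMA1, which is among the most transcribed genes of yeast. The narrower one, printed above, had 1203 to 2747 HA counts (median 1682) and 604 to 942 Myc counts (median 701.5). Its HA level was 2.52 ± 0.58 and its Myc level 0.66 ± 0.12. Log2 HA/Myc relative to promoter sites was 2.92 at 10 min, 2.18 at 20 min, 2.31 at 25 min, 2.17 at 30 min, 1.49 at 40 min, 1.41 at 60 min, 1.29 at 90 min and 1.15 at 120 min. The times up to 30 min were all above those from 40 min, and every time was above a median promoter site. The slope was -0.49 ± 0.05 (edgeR adjusted p = 0.000557). The wider site (chrVII:480615-481215) had 3.45 at 10 min and 1.35 at 120 min, with a slope of -0.58 ± 0.06 (adjusted p = 0.000557). Both held with each time left out and were lost after background subtraction, at an adjusted p of 0.0781 and 0.0784.

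PMA1 belonged to a list of 31 strongly transcribed genes. TFIIA had 5 sites in 4 of them, PMA1, SSA2 (an Hsp70 chaperone), TDH2 (a glyceraldehyde-3-phosphate dehydrogenase) and TEF1 (elongation factor 1A), with a median level of 2.14 in HA and 0.03 in Myc. Of the 5, 4 fell, with the SSA2 site at -0.05 and not past the test. TFIIF had 7 sites in 6 of them, EFT2, ENO2, PMA1, SSA2, TEF1 and YEF3, at 0.43 in HA and -0.90 in Myc, and 6 fell. TBP had 11 sites in 8 of them, ACT1, CDC19, EFT1, EFT2, MET6, PDC1, SSB1 and SSB2, at -1.10 in HA and -0.89 in Myc, and 0 passed the test. Over all sites inside genes, 39.4% fell for TFIIA, 76.4% for TFIIF and 9.54% for TBP. Over all sites of the factor the shares were 9.44%, 17.1% and 1.25%. Whether the listed genes differ from other sites inside genes was not tested. TFIIB and TFIIE had no site in these genes. The HA level was thus above the Myc level at the TFIIA and TFIIF sites and not at the TBP sites. The SSA2, TDH2, TEF1, EFT1, EFT2, SSB1 and SSB2 sites lay in sequence with near copies elsewhere, so their counts are uncertain.

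The flocculin genes FLO1 and FLO5, which encode cell-wall lectins with tandem internal repeats, had high TFIIA levels. The FLO1 TFIIA site (chrI:206256-206526) was at 2.61 ± 0.24 in HA and 1.50 ± 0.34 in Myc, and the FLO5 TFIIA site (chrVIII:526760-526929) at 2.32 ± 0.20 and 1.24 ± 0.36. Of FLO1 and FLO5, 73.87% and 73.55% of the 50-base windows in these sites were single-copy, so part of their reads could belong to another flocculin gene. TFIIF at FLO5 (chrVIII:526680-526950) fell with the largest slope, -1.08 ± 0.15 (edgeR adjusted p = 6.76e-05), at 3.54 at 10 min and -0.83 at 120 min. It had 47.8% of its windows in single copy. TFIIF at FLO1 fell at both named sites, with -0.97 ± 0.16 (adjusted p = 0.000179) at a site with 0% single-copy windows and -0.90 ± 0.13 (0.000106) at one with 62.0%.

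PDR12 gave the TFIIF fall with the largest slope among single-copy sites. The site (chrXVI:445937-446926) had 811 to 2253 HA counts (median 1712) and 434 to 1476 Myc counts (median 908.5). Log2 HA/Myc relative to promoter sites was 3.94 at 10 min, 1.88 at 20 min, 1.72 at 25 min, 1.98 at 30 min, 0.81 at 40 min, 0.76 at 60 min, 0.22 at 90 min and -0.05 at 120 min. The 10 min value stood apart from the rest, and the remaining times still declined. The slope was -1.01 ± 0.11 (edgeR adjusted p = 3.5e-05), and the adjusted p stayed at or below 0.000957 with each time left out. After background subtraction limma gave an adjusted p of 0.0118. The Myc level of the site was -1.37 ± 0.59, and its highest value was -0.76. From 20 to 120 min the level subtracted in Myc lay at -0.68 to -0.37 relative to promoter sites. Myc was thus under that level at these times and was set to 0, so the subtracted result cannot be read as a test of the ratio.

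The single TFIIB rise was in ART5, which encodes an arrestin-related adaptor for ubiquitin ligation of membrane proteins. Its site (chrVII:625644-625868) had 457 to 993 HA counts (median 646.5) and 168 to 925 Myc counts (median 551). Log2 HA/Myc relative to promoter sites was 0.75 at 10 min, 0.25 at 20 min, 0.56 at 25 min, 0.72 at 30 min, 1.03 at 40 min, 1.55 at 60 min, 2.15 at 90 min and 2.65 at 120 min, so the 4 late times lay above the 4 early ones. The ratio slope was 0.63 ± 0.15 (edgeR adjusted p = 0.0334). Myc alone fell, at -0.52 (adjusted p = 0.00801), and HA alone was at 0.12 (0.517). The ratio call was lost without 20, 25, 60, 90 or 120 min, with adjusted p from 0.0636 to 0.145, and after background subtraction (0.072).

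TFIIE falls with the largest slope were in VIR1, which acts in mRNA methylation during meiosis, and BDF2, a bromodomain protein. The VIR1 site (chrVII:430114-430446) had 0.95 at 10 min, 0.21 at 20 min, -0.17 at 25 min, -0.09 at 30 min, -0.96 at 40 min, -1.36 at 60 min, -1.26 at 90 min and -1.30 at 120 min in log2 HA/Myc relative to promoter sites. Its slope was -0.69 ± 0.08 (edgeR adjusted p = 3.18e-05), with Myc at 0.31 (adjusted p = 0.000612) and HA at -0.37 (0.0329). The BDF2 site (chrIV:332632-332931) had a slope of -0.61 ± 0.07 (adjusted p = 3.37e-05), with 0.86 at 10 min and -1.15 at 120 min. At both genes Myc rose and HA fell relative to the typical TFIIE site. Raw Myc counts at 10 and 120 min were 983 and 949 at VIR1, and 1089 and 965 at BDF2.

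TFIIE rises with the largest slope were in YBR197C, an uncharacterised gene, and in FLO1. The YBR197C site (chrII:615229-615615) had -1.12 at 10 min, -0.17 at 20 min, -0.23 at 25 min, 0.14 at 30 min, 0.32 at 40 min, 0.48 at 60 min, 0.63 at 90 min and 0.71 at 120 min, with a slope of 0.48 ± 0.06 (adjusted p = 4.25e-05). Its Myc level was 0.29 ± 0.29, next to that of UBR2 among TFIIE sites inside genes other than Ty and helicase genes. The FLO1 site (chrI:207630-207791) had a slope of 0.46 ± 0.10 (adjusted p = 0.00152). These 4 TFIIE calls held with each time left out. They were also called after background subtraction, with slopes of -4.09 at VIR1, -3.14 at BDF2, 1.45 at YBR197C and 2.685 at FLO1. The lowest HA level was -1.45 at VIR1, -0.99 at BDF2 and -1.885 at FLO1. The level subtracted in TFIIE HA lay at -0.74 to -0.56 relative to promoter sites. Values under it were set to 0, so the subtracted results at VIR1, BDF2 and FLO1 cannot be read as ratios.

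**Figure D5:**
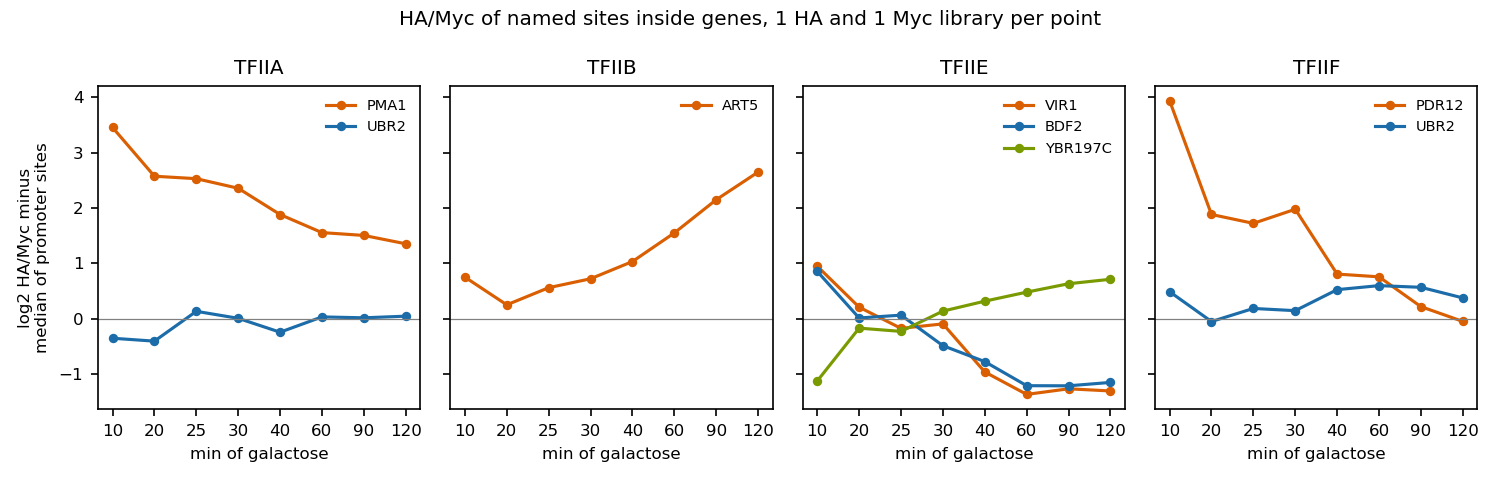
Log2 HA/Myc of named sites inside genes minus the median of promoter sites at the same time (vertical axis) against min of galactose (evenly spaced), for TFIIA at PMA1 (the wider site) and UBR2, TFIIB at ART5, TFIIE at VIR1, BDF2 and YBR197C, and TFIIF at PDR12 and UBR2. PMA1 lies at 3.45 at 10 min and 1.35 at 120 min, ART5 at 0.75 and 2.65, and the UBR2 sites stay within -0.40 to 0.60.

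Other listed genes gave few sites. Of 9 galactose genes, GAL3, the sensor that starts galactose induction, held 1 TBP site (chrIV:464052-464409). It had 669 to 1118 HA counts (median 873.5) and 454 to 890 Myc counts (median 830.5), an HA level of -0.65 ± 0.33 and a Myc level of -0.52 ± 0.37, with a ratio slope of -0.24 ± 0.08 (edgeR adjusted p = 0.0598). It was therefore not past the test. No site of any factor lay inside the 12 listed genes with internal starts in chromatin mutants, or inside the 8 genes for general factor subunits.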

How the data were processed

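The deposited values were raw read counts per site, made by the authors and not scaled. According to the methods, the authors used Bowtie2 2.2.6 at default settings against sacCer3, ran MACS2 2.1.0.20151222 on several early Myc libraries with input as control, joined the peaks by factor and counted reads in the joined intervals with bedtools. At default settings a read that fits several copies is placed at one of them. Peaks were called on Myc libraries, so a site seen by the HA copy alone would be missed. The tables held 81 count columns, 40 of HA and 41 of Myc, for 95 samples, and the 10 inputs and 4 Myc libraries at 0 min had no column here and were not analysed. Groups were the factor, tag and time of the labels.

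Sites were placed on RefSeq R64, from which the sequences and introns also come. Ratio, Myc and HA slopes were fitted on all sites of a factor with a mean of at least 10 counts, which all sites had, by edgeR 4.0.16 in R 4.3.3 with TMM scaling, on 16 libraries for the ratio and 8 for one tag. The adjusted p threshold was 0.05. The scripts were tested on simulated data with known slopes. Level and HA/Myc differences are medians within a library or time and have no p-value, since they are scores over the sites. The HA slopes and the single-copy comparisons were added after the data had been seen. Alternatives were DESeq2 1.42.0 size factors and Wald test, TMM on promoter sites, a loess offset on level, no count filter, a background (5th percentile of counts per bp) subtracted before limma 3.58.1, a limit of 500 bp from a start, promoters from 500 bp upstream to 200 bp downstream, counts per site, a pseudocount of 5, sites in Ty genes left out, single-copy sites alone, and each time left out. Tables and plots were made in Python 3.11.15 with numpy 2.4.6, pandas 2.3.3, scipy 1.17.1 and matplotlib 3.10.9.

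The sites named were, by factor, up to 2 rising and 2 falling sites with the largest ratio slope among those past the threshold with a mean of at least 50 counts and one sign in all 8 fits without a time, the 2 with the highest Myc level, the 3 loci with sites of all 5 factors and the highest Myc level, and any site in the listed galactose, internal start or factor subunit genes. Ty and subtelomeric helicase genes were left out of the first 3 parts. The sites, gene lists and tests were chosen with earlier results of these data known. Single-copy means outside those genes with at least 50% of the 50-base windows found once in R64. Genes with introns and genes with the most sites are named from these counts. PCR copies were not told apart from separate molecules.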

Additional observations from a re-analysis of the deposited data

Results flagged for a closer look

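The TFIIB Myc library at 0 min, before galactose, entered no comparison of times. Its 189 TFIIB sites inside genes had 69 to 2190 counts, with a median of 351. Their median level was -1.995 relative to promoter sites, above the range of -2.85 to -2.34 of the 8 later Myc libraries. The single-copy sites were at -0.295, against -1.26 to -0.60 later. Against the 5th percentile of counts per bp over nuclear sites, the median of all 189 was -0.59 on the log2 scale at 0 min. The median of the single-copy sites was 1.11. No second TFIIB library at 0 min was analysed here, so the spread between such libraries is not known.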

How the results depend on the processing

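Of the values recomputed under an alternative, 504 kept their direction, their side of the threshold or their size, 137 moved, 15 lost a call and 6 turned their sign. Without single times, the count of ratio falls ranged from 0 to 184 for TBP, 8 to 176 for TFIIA, 86 to 134 for TFIIF and 33 to 54 for TFIIE, and stayed at 0 for TFIIB. Ratio rises ranged from 0 to 1 for TFIIA and TFIIF, 0 to 3 for TFIIB and 8 to 20 for TFIIE, and were 0 for TBP throughout. Myc rises ranged from 2 to 20 for TBP, 0 to 1 for TFIIB, 0 to 46 for TFIIF and 53 to 84 for TFIIE, with Myc falls from 0 to 4, 9 to 25, 0 to 1 and 4 to 11, and TFIIA had 0 of each. TBP had 12 to 113 HA falls, TFIIA 4 to 197, TFIIB 4 to 66, TFIIF 89 to 110 and TFIIE 1 to 5, with HA rises from 0 to 8, 0 to 2, 0 to 2, 1 to 6 and 0 to 3. Why single times moved these counts was not tested.

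The DESeq2 Wald test gave 165 ratio falls for TBP and 3 for TFIIB, and 40 TBP, 1 TFIIA, 2 TFIIB and 66 TFIIF rises in Myc, with 1 TFIIF Myc fall. In HA it gave 1 TBP rise, 2 TFIIA and 2 TFIIB rises, 5 TFIIF rises, and 17 rises and 9 falls for TFIIE. DESeq2 size factors gave 8 TBP Myc rises. The loess offset gave 9 ratio falls for TBP and 21 for TFIIE, and rises of 2 for TFIIB and 1 for TFIIF. Background subtraction with limma gave 0 ratio falls for TBP and TFIIA, 0 rises for TFIIB and 11 for TFIIE. It lost the named calls of ACS1, PDR12 (TBP), ART5, UBR2 (TFIIE), EPL1 (TFIIF), MNN4 (TFIIE) and both PMA1 sites. With the loess offset the UBR2 TFIIE slope turned to a fall (adjusted p = 0.018).

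Level differences changed most with the choice of sites and of unit. With single-copy sites alone TBP was at -0.32 in HA and -0.066 in Myc, TFIIA at 0.10 and -0.14, and TFIIB at -0.58 and -0.95. Without Ty genes TBP was at -0.55 and -0.25, and TFIIB at -0.90 and -1.28. As counts per site, not per bp, TBP was at -0.61 and -0.31, and TFIIB at -0.91 and -1.67. Without single times the HA median ranged from -1.07 to -0.87 for TBP, while that of TFIIF ran from -0.26 to 0.12. The TFIIF HA difference turned to 0.12 without 40, 60, 90 or 120 min.

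With single-copy sites alone the HA/Myc difference was 0.54 at 10 min and 0.27 at 120 min for TFIIA, 0.57 and 0.57 for TFIIB, 0.053 and -0.25 for TFIIE, which turned the sign at 10 min, 0.84 at 10 min for TFIIF and -0.17 at 120 min for TBP. After background subtraction TBP had 2.23 and -0.88, TFIIA 10.8 and 3.14, TFIIB 8.18 and 0.64, TFIIF 10.0 and -0.87, and TFIIE -0.83 and -0.38. These sizes cannot be read as ratios, since in the Myc libraries at 10 min 54.5% of TFIIA, 58.2% of TFIIB and 58.1% of TFIIF sites inside genes lay at or under the level subtracted. The lowest count at a site inside a gene was 19, and every value rests on 1 library per time. The labels number no replicates, so no replicate block was fitted, and the ratio fit pairs the HA and Myc libraries of a time.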

Other observations

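The repeated genes, whose reads cannot be tied to one copy, differed by factor in where their sites lay. Sites in Ty genes were in 46 genes for TBP, 43 for TFIIA, 40 for TFIIB, 36 for TFIIF and 30 for TFIIE. Their median distance from the gene start was 1988 bp for TBP, 2439 bp for TFIIA and 2409 bp for TFIIB, and 652 bp for TFIIE and 774.5 bp for TFIIF. The HA/Myc ratio fell at 52 of 53 TFIIF sites and 75 of 121 TFIIA sites in Ty genes, at 9 of 179 TBP sites, at 0 of 91 TFIIB sites, and at 8 of 30 TFIIE sites, where 2 rose. In the subtelomeric helicase genes it fell at 22 of 22 TFIIF sites, 2 of 55 TFIIA sites, 6 of 47 TBP sites, 0 of 28 TFIIB sites and 0 of 16 TFIIE sites, of which 2 rose. Over all sites of the factor, 17.1% fell for TFIIF, 9.44% for TFIIA, 1.25% for TBP, 0.545% for TFIIB and 30.9% for TFIIE. For TFIIE 29.4% of all sites rose. The TFIIE share falling in Ty genes, 26.7%, was near that of all TFIIE sites. The falls of TBP and TFIIA sites inside genes were all lost after background subtraction. The sites in these repeated genes are copies of a few sequences and are not independent of each other.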
